A study of Mus musculus with 4 samples.

Results

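*Cav1* (caveolin-1) and *Cavin2* (caveolae-associated protein 2, formerly *Sdpr*) are 2 of the 470 genes measured in sections of mouse vagal ganglia, and were chosen by earlier results of the same sections as genes of caveolae whose levels differed between cell classes. Transcripts were read in place by Xenium, an imaging assay that counts single RNA molecules of a probe panel inside segmented cells. Both genes are described in 4 cell classes defined by transcript sums. These were fat-like cells (*Car3* + *Pck1* of 3 or more), vessel endothelial cells (*Eng* + *Kdr* + *Tie1* + *Vwf* of 2 or more), cells with *Prx* of 2 or more (periaxin, a protein of myelinating Schwann cells) and neurons (*Snap25* + *Tubb3* + *Scg2* + *Gap43* of 5 or more). The levels of both genes helped to select these classes, so differences between them are given as a description with no test.

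All 3 sections, numbered 1 to 3, were vagal ganglia labelled as from adult male C57BL/6 mice given *Alternaria alternata* (AA), a mould allergen, by the nose in 4 doses of 50 µl at 25 µg/ml on days 0, 3, 6 and 9, and taken 16 hours after the last dose. The tissue was fixed for 2 hours in 4% paraformaldehyde and cut at 5 µm. The study's methods give the substrain as C57BL/6J and name mice of both sexes for the study as a whole. No section came from mice without allergen, so no effect of AA on either gene can be read here. The sources used here do not say whether the sections came from separate mice, so the SD over 3 sections may be technical. The lung sample of the same series is not analysed here.

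Caveolae are small flask-shaped pits of the plasma membrane that buffer membrane tension and take part in lipid handling and uptake. Caveolin-1 is the membrane protein that forms their coat outside muscle fibres, and the cavins, among them cavin-2, are soluble adaptor proteins that assemble on that coat. Fat cells and the endothelium of blood vessels are known for abundant caveolae, whereas neurons are known for having few or none.

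On RefSeq's mouse assembly GRCm38.p6, *Cav1* spans 34994 bases of chromosome 6 (17306335 to 17341328) and *Cavin2* 13835 bases of chromosome 1 (51289126 to 51302960), both protein-coding. The 250 bases before the first listed start of each gene are shown because the genes parted in neurons. Capitals mark matches to the letters CCAAT or TATAA on either strand.
Cav1, chr6:17306085-17306334, plus strand: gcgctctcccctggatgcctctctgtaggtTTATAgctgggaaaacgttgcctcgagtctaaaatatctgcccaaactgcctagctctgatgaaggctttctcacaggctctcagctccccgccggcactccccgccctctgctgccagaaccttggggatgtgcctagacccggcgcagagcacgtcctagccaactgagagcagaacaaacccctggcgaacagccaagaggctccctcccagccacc
Cavin2, chr1:51288876-51289125, plus strand: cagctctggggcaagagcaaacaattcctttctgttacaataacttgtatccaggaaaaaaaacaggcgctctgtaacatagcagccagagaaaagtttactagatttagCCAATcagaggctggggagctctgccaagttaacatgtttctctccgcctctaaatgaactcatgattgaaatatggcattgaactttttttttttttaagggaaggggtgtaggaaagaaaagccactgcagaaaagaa
The *Cav1* stretch was 59.6% G or C with 10 CpG pairs, and 71.1% of the 32851 mouse promoters of the same length had a lower share of G or C. The *Cavin2* stretch was 40.4% G or C with 2 CpG pairs, and 12.5% of promoters had a lower share. The *Cavin2* stretch held 1 CCAAT match, found in 33.8% of promoters, and no TATAA match. The *Cav1* stretch held 1 TATAA match, found in 22.8% of promoters, and no CCAAT match. A second listed *Cav1* start, inside the gene at 17307640, had neither in the 250 bases before it, which were 60.8% G or C. These matches describe the letters and are not evidence of binding.

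The 3 sections held 9785 segmented cells and 70313 to 108121 transcripts each, with a median of 7 to 9 transcripts in a cell, and shared no cell barcode. *Cav1* gave 1087 transcripts in 890 cells (296, 305 and 486 in sections 1, 2 and 3) and *Cavin2* gave 896 in 576 cells (213, 275 and 408). The rules took 920 fat-like cells, 193 endothelial cells, 847 *Prx* cells and 1404 neurons, a cell counting in each rule it met, and 6244 cells met none of these rules or of 4 further ones used below. Against markers that the rules did not use, all 6 fat markers, among them *Aqp7*, *Cd36* and *Pparg*, were highest of the 4 classes in the fat-like cells (summed 126801 to 142289 CPM, the count of a gene per 1000000 transcripts of the class), as were all 3 glial markers in the *Prx* cells and all 7 neuronal markers in the neurons. Of 8 endothelial markers 7 were highest in the endothelial class among the 4, at 10640 to 19933 CPM against 7384 to 9832 in fat-like cells. With the 4 further classes included, only 2 of these 8 markers were. Of the others 4 were highest in the *Cd36* cells and 2 in the mural-like cells defined below, the latter at 17478 to 19662 CPM. The *Cd36* cells held only 311 transcripts of all genes, so 1 transcript weighs heavily there, and 4 of the 8 markers gave none. Among all 8 classes, 4 of 6 fat, 3 of 3 glial and 5 of 7 neuronal markers were highest in their own class.

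The endothelial label went against part of its cells. Of its 193 cells 77 also met the neuron rule, and they held 13353 of the 15818 transcripts of the class. Neuronal markers summed to 101280 to 125615 CPM there, against 123659 to 129915 in neurons. Endothelial values are therefore given for the whole rule and for the 116 cells that did not meet the neuron rule. Of these 116 cells 26 also met the fat-like rule and count in both classes. The 90 that met neither rule held 25503 ± 3492 CPM of *Cav1* (44 transcripts) and 5124 ± 3407 of *Cavin2* (9 transcripts). Transcripts of neighbouring cells can fall inside a segmented outline, and how far they did so was not tested.

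*Cav1* was high in fat-like cells and in endothelial cells outside the neuron rule, lower in *Prx* cells and lowest in neurons. Fat-like cells held 19101, 21021 and 20532 CPM in sections 1, 2 and 3 (20218 ± 998, SD, n = 3). Endothelial cells outside the neuron rule held 26362, 21277 and 21809 (23149 ± 2795), all above the fat-like values. With the 77 neuron-rule cells included, the endothelial class held only 6259, 4773 and 3775 (4936 ± 1250), below every fat-like section. Whether the endothelial class lay below fat-like cells for *Cav1* therefore turned on those cells, in which *Cav1* was 1403 ± 851 CPM.

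*Prx* cells held 4658, 5984 and 3585 CPM of *Cav1* (4742 ± 1202), a range that overlapped that of the whole endothelial rule. Without the 43 *Prx* cells that also met the neuron rule the level was 7078 ± 2950, with sections from 4643 to 10359. Neurons held 634, 337 and 499 CPM (490 ± 149), below each value of the other 3 classes. The 1216 neurons that met no other rule held 340 ± 100 CPM, and the 188 that also met another rule held 1458 ± 659. For scale, *Car3*, the fat-cell carbonic anhydrase that defines the fat-like class, was read at 125 ± 6.07 CPM in neurons and at 280808 ± 20124 CPM in fat-like cells.

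*Cavin2* had a narrower spread between classes, and neurons were not its lowest. Fat-like cells held 7865, 7289 and 7065 CPM (7406 ± 413), above every section of neurons and of *Prx* cells. Neurons held 2841, 3688 and 3616 CPM (3382 ± 470), and *Prx* cells 548, 2793 and 1403 (1581 ± 1133), the value of section 1 resting on 2 transcripts. The lowest neuron section and the highest *Prx* section were 2841 and 2793, so these neighbours in the order lay side by side. The 43 *Prx* cells that also met the neuron rule held 14 of the 25 *Cavin2* transcripts, and without them *Prx* cells stood at 1130 ± 519 CPM, with a highest section of 1727.

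Endothelial cells were the least settled class for *Cavin2*. The whole rule gave 1991, 6176 and 3661 CPM (3943 ± 2107, 61 transcripts), a range that contained that of neurons. Without the neuron-rule cells it gave 3515, 7599 and 6462 CPM (5859 ± 2108, 15 transcripts), overlapping both fat-like cells and neurons. At 15 transcripts, a difference from either was not detectable at this depth.

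**Figure D1:**
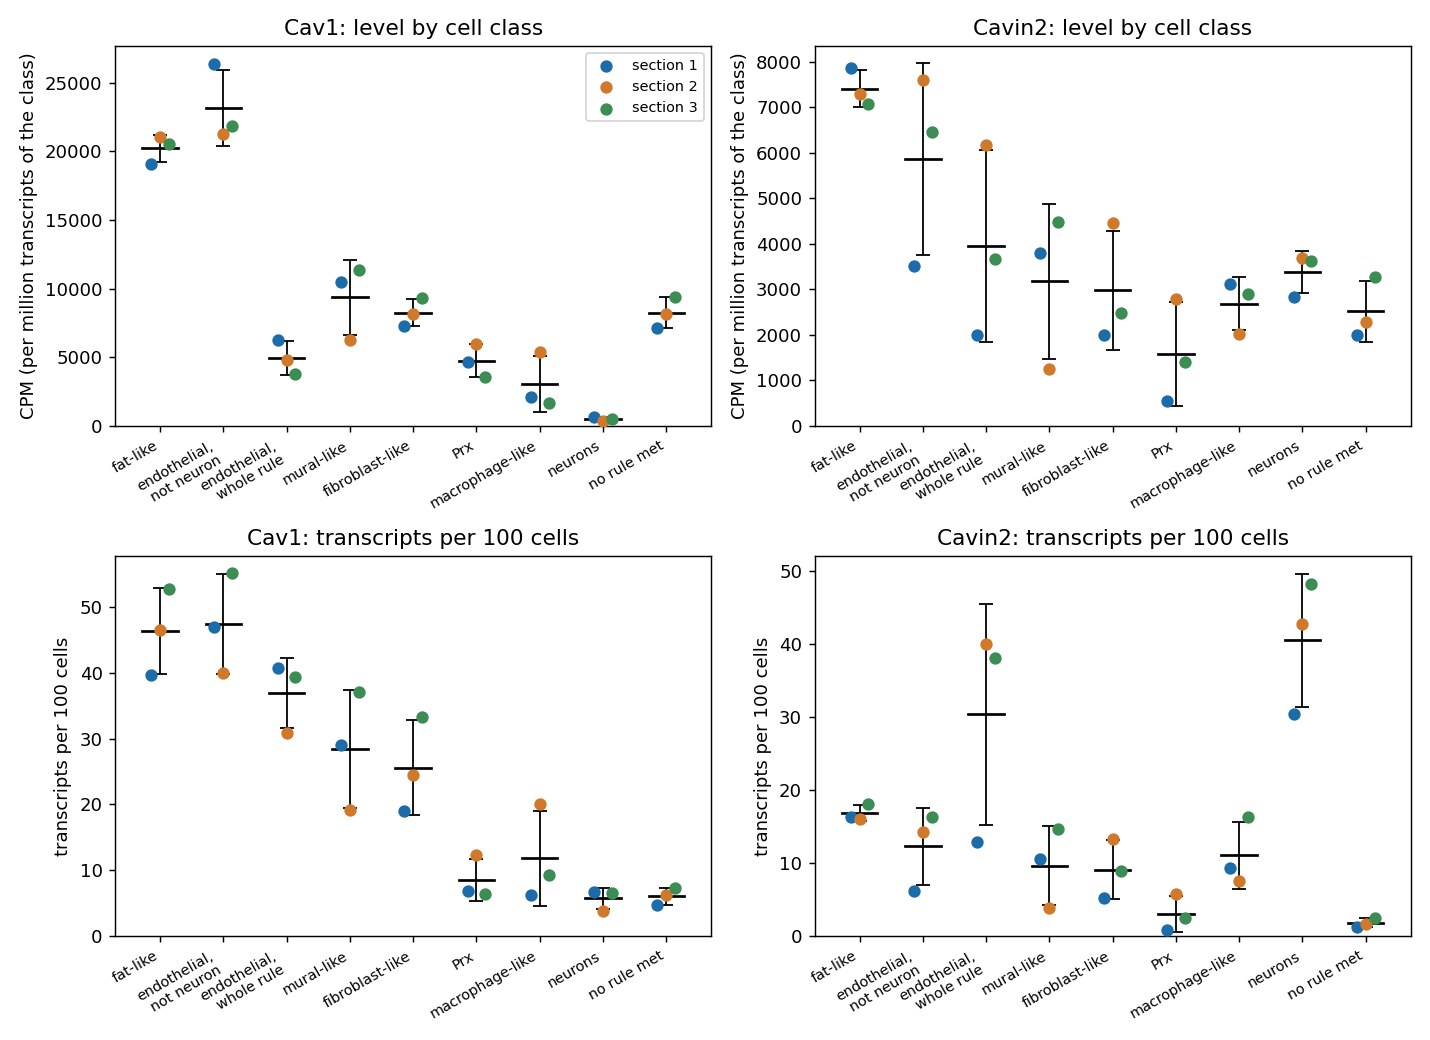
Levels of *Cav1* (left) and *Cavin2* (right) by cell class in CPM (top) and in transcripts per 100 cells (bottom), with 1 point per section, a line at the mean and bars of 1 SD (n = 3 sections). *Cav1* stands at 20218 CPM in fat-like cells and 490 in neurons, while *Cavin2* per 100 cells is highest in neurons at 40.5.

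Counted per cell, the order of *Cavin2* turned. Neurons carried 30.4, 42.8 and 48.2 *Cavin2* transcripts per 100 cells (40.5 ± 9.08) against 16.3, 16.1 and 18.1 in fat-like cells (16.9 ± 1.11), and the 2 groups of sections did not overlap. The median neuron held 79 to 100 transcripts and the median fat-like cell 20 to 24, so the per-cell count and the CPM weigh the larger neurons differently. *Cav1* kept its order, at 46.3 ± 6.51 per 100 fat-like cells and 5.78 ± 1.62 per 100 neurons. *Prx* cells carried 8.55 ± 3.25 *Cav1* and 3.03 ± 2.50 *Cavin2* transcripts per 100 cells. Endothelial cells outside the neuron rule carried 47.3 ± 7.56 and 12.3 ± 5.33, and the whole rule 37.0 ± 5.31 and 30.4 ± 15.1.

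As shares of cells, *Cavin2* was seen in 21.0% ± 2.54 of neurons and 14.5% ± 0.274 of fat-like cells, and *Cav1* in 5.27% ± 1.58 and 35.4% ± 3.25. In *Prx* cells, whose median was 10 to 12 transcripts, the shares were 2.52% ± 1.86 and 7.27% ± 2.58. When every cell was thinned to 10 transcripts and shallower cells were left out, *Cavin2* stood at 2.97% ± 0.502 in neurons and 7.04% ± 0.847 in fat-like cells, the same order as its CPM. *Cav1* then stood at 18.9% ± 0.830 in fat-like cells, 20.0% ± 1.02 in endothelial cells outside the neuron rule, 12.5% ± 1.69 in the whole endothelial rule, 6.38% ± 3.62 in *Prx* cells and 0.881% ± 0.389 in neurons. The most *Cavin2* transcripts in any cell was 17, and the most *Cav1* was 6.

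Neurons, 14.3% of all cells, held 577 of the 896 *Cavin2* transcripts, or 64.4%. Fat-like cells, 9.40% of cells, held 17.4% of *Cavin2* and 39.5% of *Cav1*. A further 35.1% of *Cav1* (382 transcripts) lay in the cells that met no rule, which had a median of 5 to 6 transcripts and a *Cav1* level of 7155, 8154 and 9402 CPM. Most *Cav1* was thus outside neurons and most *Cavin2* inside them. Neurons also held 168376 of the 252167 transcripts of all genes, so their share of *Cavin2* was near their share of all transcripts. *Cavin2* was 3382 CPM in neurons and 3511 ± 418 in all cells, while *Cav1* was 490 and 4280 ± 189.

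The number of *Cavin2* transcripts per *Cav1* transcript put this contrast in 1 value. Because each gene has its own probes, the ratio is read between classes and not as an amount of protein or RNA. It was 0.412, 0.347 and 0.344 in fat-like cells of sections 1, 2 and 3 (0.368 ± 0.0383) and 4.48, 10.9 and 7.25 in neurons (7.56 ± 3.24), with no overlap. *Prx* cells (0.325 ± 0.184), fibroblast-like cells (0.362 ± 0.159), mural-like cells (0.319 ± 0.104) and cells that met no rule (0.302 ± 0.0398) had ratios whose ranges over sections overlapped that of fat-like cells. Endothelial cells outside the neuron rule, with 56 *Cav1* and 15 *Cavin2* transcripts, gave 0.262 ± 0.116, also overlapping fat-like cells, while the whole rule gave 0.861 ± 0.497, with sections from 0.318 to 1.29.

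**Figure D2:**
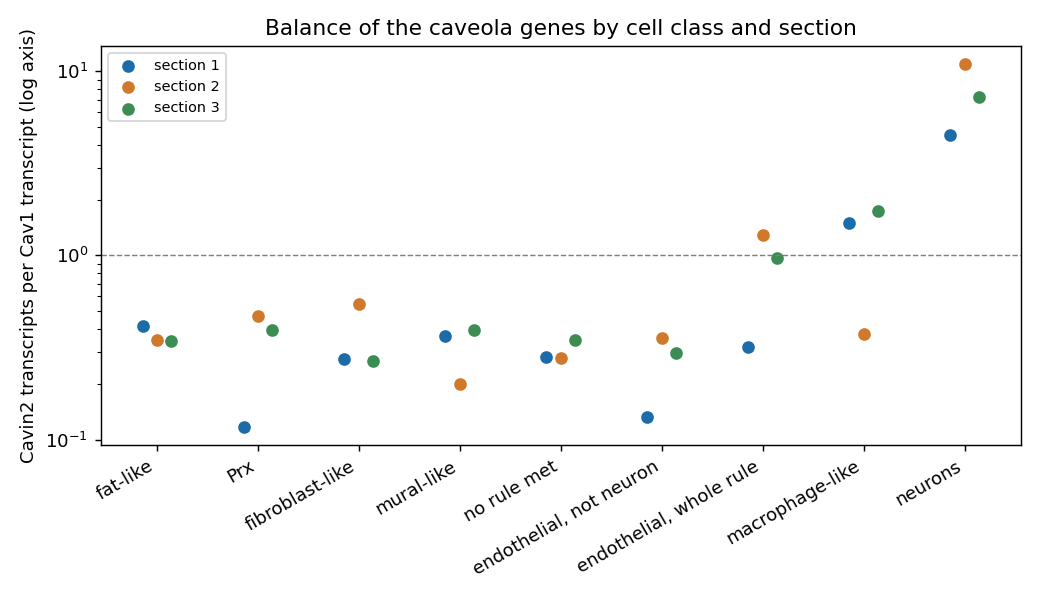
*Cavin2* transcripts per *Cav1* transcript on a log axis for 9 groups of cells, 1 point per section, with the dashed line at equal counts. The neuron points lie between 4.48 and 10.9, above every other point, and the fat-like points between 0.344 and 0.412.

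Within the fat-like rule, the CPM of *Cav1* was lower where the defining genes were higher. Cells with a *Car3* + *Pck1* sum of 3 to 9 held 23332 ± 1368 CPM of *Cav1* and those with 10 or more held 16895 ± 1830, with no overlap of sections, while the count per 100 cells went from 41.6 ± 6.22 to 55.2 ± 8.30. *Cavin2* was 8466 ± 2016 and 6309 ± 1960 CPM in the same ranges, which overlapped. The defining genes are part of the CPM total, so a larger sum lowers the CPM of every other gene. Cells outside the neuron rule with a sum of 0 held 8536 ± 1217 CPM of *Cav1* and 2362 ± 658 of *Cavin2*.

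On either side of the thresholds the levels were as follows. Cells with a *Car3* + *Pck1* sum of 2, just outside, held 32472 ± 5545 CPM of *Cav1* and those with 3, just inside, 23605 ± 3881. For *Cavin2* the same cells held 10691 ± 5735 and 9837 ± 3399. Non-neuronal cells with an endothelial sum of 1 held 17368 ± 4269 CPM of *Cav1* and those with 2 held 22557 ± 2557. *Cavin2* in those cells was 7798 ± 1565 and 5434 ± 2532. Cells with 1 and 2 *Prx* transcripts held 2908 ± 685 and 4889 ± 1750 CPM of *Cav1*, and 3704 ± 541 and 1749 ± 973 of *Cavin2*. Neuron-rule cells were not left out of these *Prx* ranges. The 1490 cells with 1 *Prx* transcript held 27525 transcripts at a median of 7 to 8, so deeper cells weigh in their CPM. The part of neurons in this step was not tested. Cells with a neuron sum of 4 and 5 held 4419 ± 1879 and 1461 ± 1664 CPM of *Cav1*, and 1537 ± 1435 and 2612 ± 1750 of *Cavin2*, all from 14 or fewer transcripts.

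Fat-like cells that also held endothelial transcripts had more *Cavin2* and similar *Cav1*. The 762 fat-like cells with none of *Eng*, *Kdr*, *Tie1* or *Vwf* held 20281 ± 893 CPM of *Cav1*, and the 158 with 1 or more held 19671 ± 2283. For *Cavin2* the levels were 6672 ± 1017 and 10129 ± 1952. In sections 1, 2 and 3 they were 7843, 6149 and 6022 without these transcripts. With them they were 8000, 11834 and 10552, from 7, 14 and 22 *Cavin2* transcripts. The 2 values of section 1 were thus close, and the counting interval of the second ran from 3216 to 16483. The CPM of *Cav1* was thus similar in fat-like cells with and without a read of these genes. The 762 cells had a median of 19 to 23 transcripts, so endothelial transcripts can be missed in them. Whether endothelial material lay inside their outlines was not tested.

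Among the other genes of caveolae and of surface transport in capillaries and fat cells, the order of fat-like and endothelial cells differed by gene, and for some it depended on the neuron-rule cells. *Cd36*, a fatty acid transporter, was at 78361 ± 6952 CPM in fat-like cells, 26650 ± 5522 in endothelial cells outside the neuron rule and 4334 ± 441 in the whole endothelial rule. *Aqp7*, the glycerol channel of fat cells, was at 11352 ± 483, 4418 ± 2580 and 683 ± 350 in the same order. Both were higher in every fat-like section than in any endothelial one, with or without those cells.

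*Gpihbp1*, which carries lipoprotein lipase across capillary endothelium, was at 3548 ± 653 CPM in fat-like cells, 5320 ± 2083 in endothelial cells outside the neuron rule (13 transcripts) and 925 ± 431 in the whole rule. The water channel *Aqp1* was at 4103 ± 681, 10118 ± 4214 and 2607 ± 840 in the same order. For *Gpihbp1* and *Aqp1* the mean of fat-like cells thus lay below endothelial cells outside the neuron rule and above the whole rule, as for *Cav1*.

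*Kdr*, a receptor of VEGF that is part of the endothelial rule, was at 26221 ± 4743 CPM in endothelial cells outside the neuron rule and 4112 ± 559 in fat-like cells. *Plvap*, a protein of the diaphragm that closes endothelial caveolae, was at 5447 ± 1977 CPM in endothelial cells outside the neuron rule, 1439 ± 295 in the whole rule and 180 ± 25.1 in neurons, with 1 transcript in fat-like cells. *Rbp7*, a retinol-binding protein, gave 8 transcripts in fat-like cells and 2 in the whole endothelial rule, too few to compare.

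Both genes were seldom read in the same neuron. Of 920 fat-like cells, 328 had *Cav1*, 133 had *Cavin2* and 55 had both, where unrelated shares would give 47.4. Of 1404 neurons, 75 had *Cav1*, 298 had *Cavin2* and 7 had both, where unrelated shares would give 15.9. All 7 were in section 1, where 4.75 would be given, and sections 2 and 3 had none where 3.24 and 7.90 would be. The 6244 cells that met no rule had 23 cells with both, where 5.64 would be given, and these cells differ widely in depth and kind. These are descriptions of cells, which are not replicates.

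In neurons, *Cavin2* per cell was higher the more transcripts the cell held, and *Cav1* was not. From neurons with under 50 transcripts through 50 to 99 and 100 to under 200 to those with 200 or more, *Cavin2* per 100 cells went through 9.57, 23.6, 38.3 and 123. *Cav1* went through 7.98, 5.30, 5.16 and 4.34 per 100 cells. In CPM, *Cav1* in these ranges was 2212 ± 844, 748 ± 158, 373 ± 193 and 143 ± 82.8, and *Cavin2* was 2640 ± 493, 3336 ± 396, 2771 ± 862 and 4066 ± 332. The 225 neurons with the most transcripts thus had 285 *Cavin2* and 10 *Cav1* transcripts.

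**Figure D3:**
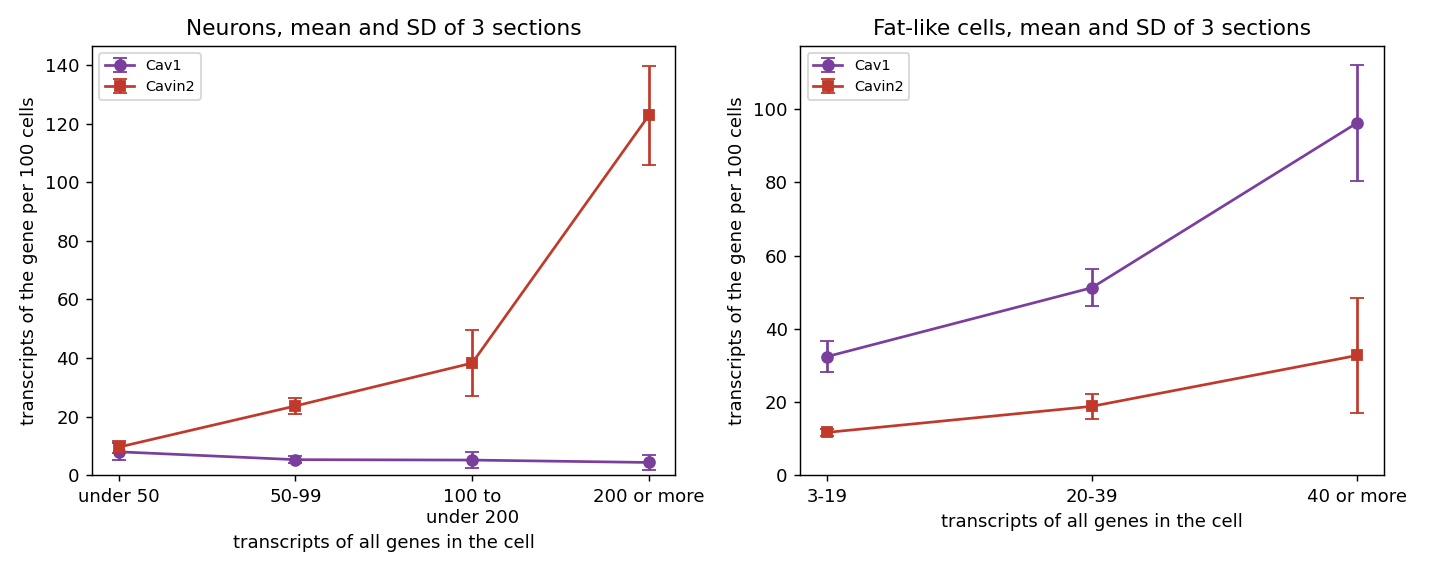
Transcripts of *Cav1* and *Cavin2* per 100 cells against the number of transcripts of all genes in the cell, for neurons (left) and fat-like cells (right), as mean and SD of 3 sections. In neurons *Cavin2* climbs to 123 per 100 cells while *Cav1* stays between 4.34 and 7.98, whereas in fat-like cells both climb.

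Fat-like cells differed from this. *Cav1* per 100 cells went from 32.4 ± 4.29 in those with 3 to 19 transcripts through 51.2 ± 4.99 at 20 to 39 to 96.2 ± 16.0 at 40 or more. *Cavin2* went from 11.7 ± 0.936 through 18.8 ± 3.48 to 32.7 ± 15.7.

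*Cavin2* was uneven among neurons. The splits that follow were chosen after values had been seen and carry no test. The 232 neurons with a transcript of *Vip* (vasoactive intestinal peptide) held 5965, 8655 and 7045 CPM of *Cavin2* (7221 ± 1354), and the 1172 without held 2016, 2288 and 2498 (2267 ± 242). Sections of the 2 groups did not overlap, and the range of *Vip* neurons contained that of fat-like cells. They held 278 of the 577 neuronal *Cavin2* transcripts. *Cav1* went the other way, at 247 ± 137 CPM with *Vip* and 559 ± 156 without.

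*Prdm12* is a transcription factor gene known from sensory neurons of neural crest origin. The 131 neurons with a *Prdm12* transcript held 1500, 1502 and 943 CPM of *Cavin2* (1315 ± 322), from 17 transcripts. The 1273 without one held 2924, 3946 and 3828 (3566 ± 559), above every *Prdm12* section. *Cav1* was 627 ± 289 CPM in *Prdm12* neurons and 475 ± 170 in the others, with overlapping sections.

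*Cavin2* also differed between neurons split by receptor and peptide genes. Neurons with 2 or more transcripts of *Chrna3*, a nicotinic receptor subunit, held 4725 ± 869 CPM and the others 1879 ± 145. Neurons with *Trpv1*, the capsaicin receptor, held 4405 ± 808 and those without 2269 ± 204. The 35 neurons with 10 or more transcripts of *Calca*, the gene of the peptide CGRP, held 647, 541 and 411 CPM (533 ± 118), from 3 transcripts, against 3484 ± 493 in the rest. Those 35 cells had no *Cav1* among 5829 transcripts, which allows up to 515 CPM.

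These groups share cells and differ in depth. Among neurons of 100 or more transcripts, *Cavin2* was 6779 ± 1274 CPM with *Vip* and 2268 ± 360 without. In the same deeper neurons it was 1465 ± 173 CPM with *Prdm12* and 3640 ± 627 without. Both differences were close to those among all neurons.

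**Figure D4:**
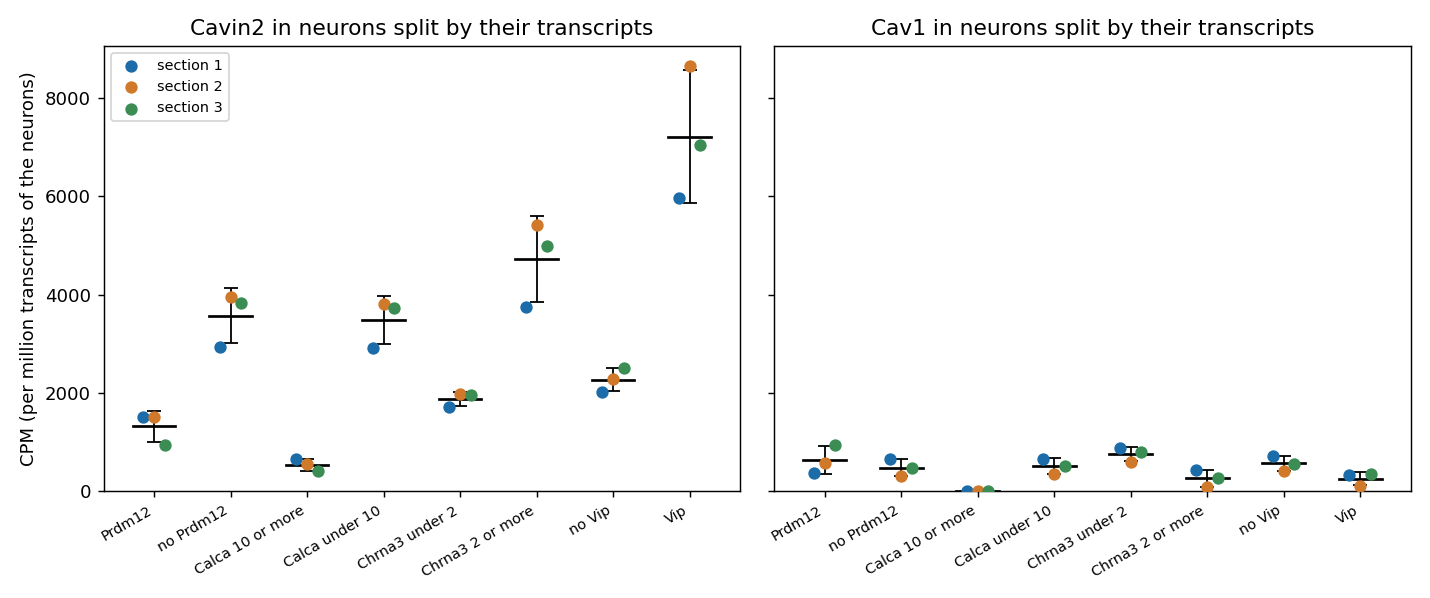
CPM of *Cavin2* (left) and *Cav1* (right) in neurons grouped by their own transcripts, 1 point per section with the mean and SD (n = 3). *Cavin2* is highest with *Vip* at 7221 and lowest with 10 or more *Calca* transcripts at 533, and no plotted *Cav1* point reaches 1000.

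Over 8 cell classes in 3 sections (24 values of log2(CPM + 100), cells meeting 1 rule only), the 274 genes with 50 or more transcripts were ranked by their correlation with each gene. Nearest to *Cav1* were *Hp* (haptoglobin, r = 0.59), *Car3* (0.54), *Aqp7* (0.53), *C3* (complement component 3, 0.51) and *Rgs5* (0.49), of which *Car3* and *Rgs5* define a class. Nearest to *Cavin2* were *Rasd1* (0.67), *Mettl7a2* (0.63), *Gpihbp1* (0.58), *Htra3* (0.48) and *Cyp4b1* (0.47). The lists shared no gene, and *Cavin2* ranked 21 for *Cav1* (r = 0.29). Over the 12 values of the 4 classes of the rule alone, *Htra3* stood at -0.15 for *Cavin2* and *Rgs5* at 0.86 for *Cav1*. The other listed genes then stood between 0.44 and 0.76. The 24 values share sections and classes of unequal depth, so these correlations are descriptions.

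The first genes of both lists were highest in fat-like cells among the 4 classes. *Hp* was at 58521 ± 4696 CPM in fat-like cells and 32.3 ± 56.0 in neurons, and *C3* at 31970 ± 1693 and 40.3 ± 35.3. *Rasd1*, which encodes a small GTPase induced by glucocorticoid, was at 13897 ± 1923 CPM in fat-like cells, 340 ± 65.9 in neurons and 185 ± 201 in *Prx* cells. *Mettl7a2* was at 9712 ± 1267, 1068 ± 117 and 1402 ± 310.

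Classes outside the rule that chose the genes allowed a test. They were 153 mural-like cells (*Rgs5*, *Higd1b*, *Myh11*, *Cnn1* and *Tagln*), 115 macrophage-like cells (*Ctss*, *Mpeg1*, *Laptm5*, *Ms4a7*, *Folr2*, *Pf4* and *Cybb*) and 19 cells with *Cd36* of 3 or more outside the fat-like rule, each against 193 fibroblast-like cells (*Lum*, *Dpt*, *Mfap4*, *Mfap5*, *Pi16*, *Igfbp6* and *Comp*). *Cav1* was 10456, 6242 and 11383 CPM in mural-like cells (9361 ± 2740), 7309, 8166 and 9297 in fibroblast-like cells (8257 ± 997), and 2081, 5391 and 1660 in macrophage-like cells (3044 ± 2043). Mural-like and fibroblast-like sections overlapped, and macrophage-like sections lay below both. Without cells that also met the neuron rule the levels were 15980 ± 4782, 15197 ± 2623 and 7247 ± 4391 in the same order, and the macrophage-like sections, up to 11272, then overlapped the mural-like ones, from 10490. Of the 153 mural-like cells 32 also met the fat-like rule and 19 the endothelial rule. In single-rule cells the 3 levels were 16765 ± 9429 (19 transcripts), 15241 ± 2105 (44) and 5115 ± 4916 (6). Mural-like sections then ran from 5917 to 22988. The 19 *Cd36* cells held 13 *Cav1* transcripts, at 53192, 65790 and 21277 CPM. Among all 8 classes, 7 of 7 fibroblast markers outside the rules were highest in fibroblast-like cells. So were 2 of 5 mural markers in mural-like and 3 of 5 macrophage markers in macrophage-like cells. Neuronal markers summed to 58986 to 101124 CPM in mural-like, 63476 to 93815 in macrophage-like and 59136 to 81810 in fibroblast-like cells.

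*Cavin2* in these classes rested on 6 to 18 transcripts each. It was 2976 ± 1303 CPM in fibroblast-like cells, 3178 ± 1706 in mural-like cells and 2683 ± 583 in macrophage-like cells, with overlapping sections. Without neuron-rule cells it was 4949 ± 2515, 5672 ± 1937 and 1928 ± 1702, the last from 3 transcripts. In single-rule cells it was 4816 ± 2417, 2377 ± 4117 and 817 ± 1415, from 12, 4 and 1 transcripts. The 19 *Cd36* cells held 0, 2 and 4 transcripts.

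Neither gene passed edgeR's filter on low counts in any of the 3 comparisons, where only 16 genes did for mural-like, 10 for macrophage-like and 7 for *Cd36* cells. Fitted with no such filter on sums of cells that met 1 rule only, with section as a block, neither gene was called at an adjusted p of 0.05 in edgeR's quasi-likelihood test. These sums were smaller than the class counts above. They came from 65 macrophage-like, 81 mural-like, 17 *Cd36* and 151 fibroblast-like cells. In that order they held 1, 4, 5 and 12 *Cavin2* transcripts and 6, 19, 12 and 44 of *Cav1*, so the differences below rest on few counts. The share of all tested genes called was 9.06% for *Cd36* cells, 6.29% for mural-like and 6.25% for macrophage-like cells, each against the same fibroblast-like sums. Genes that define the classes were among those tested. Their calls follow from the rules, and the shares can include them. *Cav1* differed from fibroblast-like cells by -2.14 on the log2 scale in macrophage-like cells (SE 0.83, edgeR adjusted p = 0.146), by -0.62 in mural-like cells (SE 0.60, adjusted p = 0.993) and by -0.69 in *Cd36* cells (SE 0.78, adjusted p = 0.909). *Cavin2* differed by -2.80 (SE 1.63, edgeR adjusted p = 0.757), -1.34 (SE 1.35, edgeR adjusted p = 0.993) and -0.40 (SE 1.15, edgeR adjusted p = 0.909) in the same order. Of these 6 values 1, *Cav1* in macrophage-like cells, had an unadjusted p under 0.05 in edgeR (0.0100). Scaled by library size alone, that difference was -1.45, with an unadjusted edgeR p of 0.0675 (edgeR adjusted p = 0.597). DESeq2 was run only on the genes past the filter, which included neither *Cav1* nor *Cavin2*. The sign in *Cd36* cells depended on the scaling. With library size alone in place of TMM factors *Cav1* was at 1.63 (edgeR adjusted p = 0.673) and *Cavin2* at 1.95 (edgeR adjusted p = 0.945). The median of all tested genes moved less, from -2.04 to -1.78. In CPM, *Cav1* in single-rule cells was 58063 ± 37301 in *Cd36* cells and 15241 ± 2105 in fibroblast-like cells, opposite in direction to the TMM value. The *Cd36* sums held only 94, 41 and 128 transcripts of all genes. In mural-like cells *Cav1* turned to 0.22 (edgeR adjusted p = 0.936).

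These misses do not show that the classes are alike, since the standard errors reach 1.63. Of the transport list, *Aqp7* (5.30, SE 1.62, edgeR adjusted p = 0.0146) and *Cd36* (4.19, SE 0.84, adjusted p = 5.79e-05), which defines the class, were called in *Cd36* cells. No gene of the list was called in the mural-like or macrophage-like comparison.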

How the data were processed

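Xenium transcript counts were analysed from 3 sections of vagal ganglia. Per the study's methods, images were processed on the Xenium analyzer, then with Xenium Ranger at default settings and Seurat. The authors deposited 1 table of whole-number counts per gene and segmented cell, not normalized, and every cell column carried a section name that matched the labels. The deposited per-cell metadata were not used. The members, cell classes and gene lists were chosen with earlier results of these data known.

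Cells were classed by raw transcript sums, with no doublet caller and no further cell filter. Counts of each gene were summed per class and section and divided by the class total (CPM), by cells, or given as the share of cells with a transcript. Exact 95% intervals per section and limits for a count of 0 (3 transcripts over the class total of all sections) cover counting error only, and depth per class is given beside the values. Classes outside the rule were compared on section sums of cells meeting 1 of 8 rules with edgeR 4.0.16 (TMM factors, quasi-likelihood, section as block, Benjamini-Hochberg) in R 4.3.3. Since neither gene passed the planned filter on low counts, values without it are given. DESeq2 1.42.0 was an alternative. Scripts were tested on simulated counts. Genes were named by fixed lists and by correlation over 24 class values. The neuron splits were chosen after their values were seen. Alternatives were single-rule cells, raised thresholds, totals without the defining genes, per-cell counts, 10 or more transcripts per cell, and leaving out each section. Python 3.11.15 and RefSeq promoters of GRCm38.p6 were used.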

Additional observations from a re-analysis of the deposited data

How the results depend on the processing

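Ratios of fat-like cells over another class, as log2 of CPM, depended most on cells that met several rules and on the choice of denominator. Of 53 such alternatives 49 kept their direction and 4 turned, and all 13 alternatives of *Cavin2* over *Cav1* in fat-like cells or neurons kept theirs. These counts do not measure robustness, since some alternatives could not turn. Each ratio had 1 sign in all 3 sections, so leaving out a section could not turn it. No cell met both the fat-like and the neuron rule, so leaving out neuron-rule cells left fat-like over neurons unchanged. All 1404 neurons had 10 or more transcripts. *Cav1* over the endothelial rule was 2.06. It was -0.31 in cells meeting 1 rule only, -0.19 without neuron-rule cells (an alternative chosen after seeing the data), 2.62 with the defining genes left out of the total, 1.60 with thresholds raised by 1 and 0.32 per cell. *Cav1* over neurons was 5.41, and 5.96, 6.04 and 3.03 in single-rule cells, without the defining genes and per cell. *Cavin2* over the endothelial rule was 1.06 and -0.68 per cell. *Cavin2* over neurons was 1.14, 1.77 without the defining genes and -1.24 per cell. *Cavin2* over *Prx* cells had no finite value with raised thresholds, because a section had a count of 0.

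Counts of genes called moved with the filter, and they include genes whose difference was fixed by the class rules. With the filter, the defining genes *Comp*, *Igfbp6*, *Lum*, *Mfap4*, *Myh11*, *Rgs5* and *Tagln* were among the mural-like calls. *Comp*, *Igfbp6*, *Ctss* and *Laptm5* were among the macrophage-like calls. *Cd36* cells had 27 calls without the filter and 9 with library size alone in addition, a setting added after seeing the data. Mural-like cells had 12 calls, 21 without the filter and 7 in cells with 10 or more transcripts, and from 2 (without section 3) to 10 (without section 2) when 1 section was left out. Macrophage-like cells had 5 calls, 21 without the filter and 15 with library size alone in addition, and from 0 (without section 1) to 7 (without section 2) when 1 section was left out. In library size alone without the filter, *Cav1* and *Cavin2* in *Cd36* cells turned to 1.63 and 1.95 and *Cav1* in mural-like cells to 0.22. Without section 2, *Cav1* passed the filter in mural-like cells at 1.22 (edgeR adjusted p = 0.129). The cause was not tested. With thresholds raised by 1, and for most settings of *Cd36* cells, fewer than 10 genes passed the filter and no fit was made. Depth limits what can be said of *Cavin2* in the smaller classes, with 15 transcripts in endothelial cells outside the neuron rule, 13 in macrophage-like cells and 6 in *Cd36* cells. The single-rule cells that entered the tests held 1 in macrophage-like and 5 in *Cd36* cells.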
